A study of Mus musculus with 31 samples.

Results

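Testes and ovaries of Wv/Wv mouse fetuses were compared at 16 dpc (days post coitum), to ask which transcripts differ between the sexes when few germ cells are present. The comparison set the 3 arrays of Wv/Wv testis at 16 dpc against the 3 arrays of Wv/Wv ovary at the same age, all chosen by their titles, which makes 6 of the 31 arrays of the series. Wv is a point mutation of Kit that lowers the kinase activity of the receptor, every Wv/Wv sample carried it on both alleles in all cells, and Kit is also needed by mast cells, melanocytes and early blood cells. Wild-type testes and ovaries at 16 dpc (3 arrays each) and Wv/Wv testes and ovaries at 14 dpc (2 and 3 arrays) and 12 dpc (3 and 2 arrays) were used to show where the difference departs from that in other gonads. RNA of the whole organ was hybridised, so less RNA per cell and fewer cells of a type cannot be told apart. The arrays of a group are given as biological replicates, with no word on separate fetuses or pools, so part of the spread behind each p-value may be technical.

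The fetal gonad starts as the same primordium in both sexes. In XY gonads Sry switches on Sox9 in the supporting cells, which become Sertoli cells, enclose the germ cells in cords, secrete anti-Müllerian hormone and release desert hedgehog, a signal that drives nearby interstitial cells to become androgen-producing Leydig cells. In XX gonads Rspo1, Wnt4 and beta-catenin signalling, joined by the transcription factor Foxl2, direct the supporting cells to become pregranulosa cells. Germ cells enter meiosis in the fetal ovary and stop dividing in the fetal testis, and testis cords form without them.

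Values are log2 signals, a change is the mean of Wv/Wv testes minus the mean of Wv/Wv ovaries (± the fitted standard error), and a gene was called at a limma adjusted p below 0.05 over all 18194 genes tested. The arrays were of 2 kinds. On 4 of the 6 arrays the SD over all probe sets was 2.36 to 2.39, but it was 2.16 on Wv/Wv testis array 1 and 2.10 on Wv/Wv ovary array 2, called narrow-spread arrays here (SD below 2.25). For Gapdh, the 3′ control probe sets exceeded the 5′ ones by 0.51 and 0.73 on these arrays, against 1.98 to 2.56 on the other 4. One narrow-spread array stood on each side, so a class effect equal in both sexes cancels in a change but widens the spread around it. A class effect that differs between the sexes does not cancel. Amh, for one, changed by 1.79 on wide-spread and 4.26 on narrow-spread arrays. Counts are also given from a class-adjusted fit, with the array class as a term shared by both sexes. It left out wild-type testis 16 dpc array 1, the array of lowest SD in the series (1.77). No detection calls were used here. Where all or some arrays of the lower group read under 5.387, the 40th percentile of all values, that limit stood in for their readings and the fold is written as "at least".

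At 16 dpc the Wv/Wv testis stood above the Wv/Wv ovary in transcripts of steroid synthesis, cholesterol synthesis, Sertoli cells and the cell cycle, and below it in transcripts of pregranulosa cells. In total 1266 genes were called (6.96% of those tested), 689 higher (3.79%) and 577 lower (3.17%) in Wv/Wv testis. With the class adjusted for, 1889 genes were higher (10.4%) and 1839 lower (10.1%), among them all 689 and all 577. The counts for gene lists below are to be read beside these shares of all genes. The class is balanced here, so the class term leaves each change as it was and its direction could not differ. Centring on housekeeping genes moved the balance to 758 higher and 978 lower. The 3 testis arrays did not overlap the 3 ovary arrays for 3531 genes (19.4%) and for 1255 of the 1266 called genes. Of the called genes, 547 rose and 394 fell by at least 1 on the log2 scale. All 1266 kept their sign on the wide-spread arrays alone and 1262 kept it between the narrow-spread arrays, with a median absolute change of 1.39 and 1.30. The genes were called from these same arrays, so the kept sign is no independent check. The median change over all genes was 0.00.

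**Figure D1:**
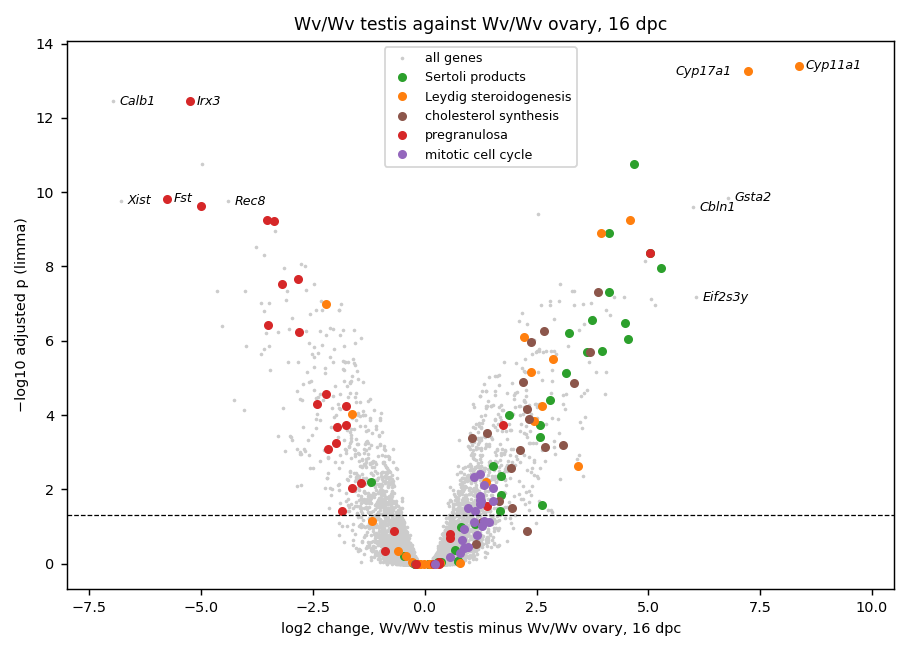
Change of each gene between Wv/Wv testis and Wv/Wv ovary at 16 dpc (x axis, log2, testis minus ovary) against its −log10 limma adjusted p (y axis), for 18194 genes (grey) and the members of 5 gene lists (coloured). The dashed line marks an adjusted p of 0.05. Leydig, cholesterol and Sertoli genes lie mostly to the right, up to Cyp11a1 at 8.36, and pregranulosa genes mostly to the left.

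The 2 largest rises were enzymes of steroid synthesis. Cyp11a1, which cleaves the side chain of cholesterol in the first step of steroid synthesis, read 12.86, 12.95 and 13.00 on the 3 Wv/Wv testis arrays, against 4.49, 4.78 and 4.46 on the 3 Wv/Wv ovary arrays. It was the gene with the largest rise (8.36 ± 0.33, adjusted p = 3.91e-14, at least 188-fold). This rests on the brightest of 3 probe sets, as the other 2 changed by −0.15 and 0.04 and stayed at or under 6.55 on all 6 arrays. Cyp17a1, which makes androgen precursors, read 13.92, 14.04 and 14.02 in Wv/Wv testes, against 6.99, 6.44 and 6.89 in Wv/Wv ovaries (7.22 ± 0.30, 149-fold, adjusted p = 5.60e-14). Star, which carries cholesterol into mitochondria, read 11.39, 11.29 and 11.47 in Wv/Wv testes, against 6.77, 7.04 and 6.60 in Wv/Wv ovaries (4.58 ± 0.32, 24.0-fold), and its other 2 probe sets rose by 5.94 and 5.06. In each of these genes the arrays of a sex lay close together and the sexes were far apart.

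Of 25 measured members of the Leydig list 11 rose and 2 fell in Wv/Wv testis, with a median change of 0.34 against 0.00 over all genes; with the class adjusted for 11 were higher and 3 lower. Cyp11b1, a steroid 11-beta-hydroxylase, rose at least 7.53-fold (3.93 ± 0.29). Members named here after their values were seen included Scarb1, the receptor that takes up cholesterol esters (3.44 ± 0.71), ferredoxin Fdx1, the electron donor of mitochondrial P450 enzymes (2.87 ± 0.35), and Hsd3b1 (2.44 ± 0.39). The members that fell were Akr1c18, a progesterone-degrading reductase (fell by 2.22 ± 0.21), and Thbs2, a matrix protein (fell by 1.64 ± 0.25). Lhx9 stood at 10.95 ± 0.17 in Wv/Wv testes and 10.76 ± 0.06 in Wv/Wv ovaries (SD, n = 3 each; adjusted p = 1). Insl3, a hormone of fetal Leydig cells, has a probe set shared with another gene and was not analysed here. Beyond the list, Gsta2, a glutathione transferase, rose at least 35.6-fold (6.78 ± 0.42). Alcohol dehydrogenase Adh1 (4.45 ± 0.41) and epoxide hydrolase Ephx1 (4.05 ± 0.40), named after their values were seen, also rose.

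Cholesterol is the substrate of these enzymes, and its synthesis runs from acetyl-CoA through mevalonate and squalene. Of 20 measured genes of the pathway 16 rose and 0 fell, with a median change of 2.25, and with the class adjusted for 19 were higher and 0 lower. Fdps, the farnesyl diphosphate synthase, read 11.00, 10.54 and 10.59 in Wv/Wv testes, against 7.16, 6.36 and 6.99 in Wv/Wv ovaries (3.87 ± 0.35, 14.6-fold). A second, dim probe set of Fdps (at most 4.30 on the 6 arrays) changed by −0.15. Tm7sf2, a sterol reductase, rose by 3.70 ± 0.43, the lanosterol demethylase Cyp51 by 3.34 ± 0.45 and the isomerase Idi1 by 3.09 ± 0.56. Srebf2, the transcription factor that governs the pathway, rose by 1.05 ± 0.18 but did not pass with quantile or housekeeping scaling (adjusted p = 0.0693 and 0.104). The other 4 did not pass: Hmgcs1 changed by 1.15 ± 0.53 (adjusted p = 0.303), Insig1 by 2.29 ± 0.84 (adjusted p = 0.132), Ggps1 by −0.21 ± 0.31 and Sc5d by 1.27 ± 0.42. The arrays of Insig1 split by class, at 11.80, 8.91 and 9.11 in Wv/Wv testes, against 7.11, 8.92 and 6.90 in Wv/Wv ovaries, where the narrow-spread array was the highest of each sex. Within class Insig1 differed by 2.00 on wide-spread and 2.88 on narrow-spread arrays.

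Of 10 measured adrenal genes 3 rose and 0 fell (4 and 0 with the class adjusted for): Cyp11b1, the receptor for adrenocorticotropic hormone Mc2r (1.78 ± 0.34), and the 21-hydroxylase Cyp21a1 (1.00 ± 0.21). Cyp21a1 read 8.15, 7.67 and 7.55 in Wv/Wv testes, against 6.80, 7.16 and 6.39 in Wv/Wv ovaries, and did not pass with housekeeping centring (adjusted p = 0.199), quantile scaling (0.0739) or only the 6 compared arrays in the fit (0.0984). Mc2r did not pass with only those arrays (0.0795). The list averaged 6.55 to 6.81 over its members on the Wv/Wv testis arrays and 5.59 to 6.24 on the Wv/Wv ovary arrays. Whether adrenal cells were present in the samples was not tested.

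Hedgehog signalling links the supporting cells to the Leydig lineage. The ligand Dhh, made by Sertoli cells, read 9.72, 9.87 and 9.99 in Wv/Wv testes, against 5.21, 5.93 and 6.06 in Wv/Wv ovaries (at least 16.8-fold, 4.12 ± 0.37, adjusted p = 4.95e-08). The pathway's target and effector Gli1 rose by 3.54 ± 0.34 (at least 11.6-fold), the target and inhibitor Hhip by 3.13 ± 0.47 (at least 6.02-fold) and the receptor Ptch1, also a target, by 2.37 ± 0.61. Ptch1 read 10.95, 12.13 and 12.16 in Wv/Wv testes, against 9.93, 8.43 and 9.74 in Wv/Wv ovaries, with the narrow-spread array lowest in each sex, and its adjusted p was 0.099 without Wv/Wv ovary array 2, 0.077 without Wv/Wv testis array 2 and 0.079 without Wv/Wv testis array 3. Of 15 measured genes of the pathway 4 rose and 2 fell (5 and 2 with the class adjusted for), with a median of 0.00. The co-receptor Boc (fell by 0.91 ± 0.17) and Disp1, which releases the ligand from cells (fell by 0.91 ± 0.17), were lower, though Boc did not pass with cyclic loess, quantile or housekeeping scaling (adjusted p 0.0707 to 0.101). Smo, the signal transducer, changed by −0.15 ± 0.37 (adjusted p = 1).

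**Figure D2:**
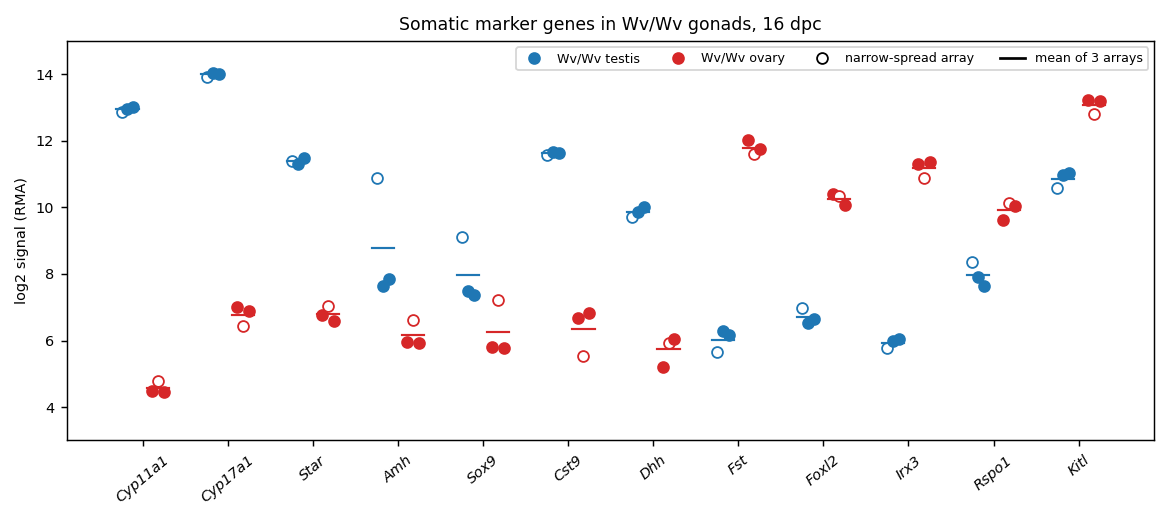
Log2 signal (y axis) of 12 somatic marker genes on each Wv/Wv testis (blue, left) and Wv/Wv ovary (red, right) array at 16 dpc, with the mean of 3 arrays as a bar. Open symbols are the narrow-spread arrays. Arrays of the sexes do not overlap for any of the 12, and the narrow-spread testis array reads highest for Amh (10.87) and Sox9 (9.09).

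Of 10 measured transcription factors of Sertoli cells 3 rose and 0 fell (median 0.76), and with the class adjusted for 6 were higher and 2 lower. Dmrt1, which keeps Sertoli cells male and is also a germ cell gene, rose by 3.51 ± 0.59 (at least 6.24-fold), and Sox8, which acts beside Sox9, rose by 1.36 ± 0.25 (at least 1.54-fold). Sox9 read 9.09, 7.49 and 7.36 in Wv/Wv testes, against 5.79, 7.23 and 5.78 in Wv/Wv ovaries (1.71 ± 0.50, adjusted p = 0.0353). The wide-spread testis arrays lay just above the narrow-spread ovary array, while within class the change was 1.64 on wide-spread and 1.87 on narrow-spread arrays. Without Wv/Wv testis array 1 the adjusted p of Sox9 was 0.286, without Wv/Wv ovary array 1 or 3 it was 0.18 and 0.182, and with quantile or housekeeping scaling 0.13 and 0.175. With only the 6 compared arrays in the fit it was 0.207. Gata1 did not pass (−1.04 ± 0.33, adjusted p = 0.0641).

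Of 37 measured Sertoli products 21 rose and 1 fell in Wv/Wv testis, with a median of 1.71, and with the class adjusted for 24 were higher and 1 lower. Cst9 (testatin), a cystatin-like protein, read 11.57, 11.66 and 11.62 in Wv/Wv testes, against 6.68, 5.53 and 6.82 in Wv/Wv ovaries (5.28 ± 0.43, 38.7-fold). Hsd17b1, which reduces androstenedione and oestrone and is also on the pregranulosa list, read 9.86, 9.86 and 9.97 in Wv/Wv testes, against 4.82, 5.06 and 4.72 in Wv/Wv ovaries (at least 22.8-fold, 5.03 ± 0.39). Serpina5, the protein C inhibitor, rose by 4.68 ± 0.26 (at least 5.51-fold) and the calcium-binding protein Tesc by 4.54 ± 0.50. Amh, which makes the Müllerian ducts regress, read 10.87, 7.64 and 7.84 in Wv/Wv testes, against 5.96, 6.61 and 5.92 in Wv/Wv ovaries (2.62 ± 0.73, adjusted p = 0.026). The arrays of the sexes did not overlap, but the size of the Amh difference was 1.79 on wide-spread and 4.26 on narrow-spread arrays, and without Wv/Wv testis array 1 it was 1.57 (adjusted p = 0.262). Without Wv/Wv ovary array 1 or 3 the adjusted p of Amh was 0.094 and 0.099, and with quantile or housekeeping scaling 0.0875 and 0.104. With only the 6 compared arrays in the fit it was 0.169.

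Further Sertoli products, named after their values were seen, were the defensin Defb19 (4.48 ± 0.46), the synapse organiser Cbln4 (4.11 ± 0.30, at least 11.8-fold), the prostaglandin D synthase Ptgds (3.64 ± 0.43), Mmd2 (3.74 ± 0.38), the androgen-producing Hsd17b3 (2.58 ± 0.42, at least 4.87-fold) and the transcriptional cofactor Cited1 (3.22 ± 0.35, at least 8.57-fold). Hsd17b3 did not pass with only the 6 compared arrays in the fit (adjusted p = 0.054). Wt1, a transcription factor of both supporting lineages, fell by 1.21 ± 0.28. Among members that did not pass were Fgf9, the growth factor that sustains Sox9 (0.68 ± 0.35, adjusted p = 0.423), Clu (0.37 ± 0.33) and Cldn11, a tight junction protein (−0.13 ± 0.22). The secreted neuronal protein Cbln1, outside the lists, read 11.14, 11.69 and 11.84 in Wv/Wv testes, against 5.57, 5.51 and 5.61 in Wv/Wv ovaries (6.00 ± 0.39, 63.8-fold), and its other 2 probe sets rose by 7.36 and 4.22. Other rises among the 12 largest were Sostdc1, an antagonist of BMP and Wnt signals (4.93 ± 0.39, at least 29.3-fold), and the X-linked AU015836 (5.06 ± 0.47, at least 32.8-fold).

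Promoters of these genes were read to show the sequence at their start sites, from RefSeq with build GRCm38.p6, in windows of 300 bases that end downstream of the start. The table held a promoter for 6 of the 11 Leydig genes and 16 of the 24 Sertoli genes called higher. The core site of Nr5a1, the steroidogenic factor of the gonad, was searched as AAGGTCA on both strands. It was found in 0 of the 6 Leydig genes and 1 of the 16 Sertoli genes (6.25%), against 5.38% of all 27025 genes in the table. A SOX motif, AACAAT on both strands, which does not overlap the core site, was found in 0 of the 6 Leydig genes and 3 of the 16 Sertoli genes (18.8%), against 12.2% of all genes. Each motif was searched in 1 exact spelling, so a site spelled otherwise was not counted. A window without a match is thus not shown to lack a site. These matches describe letters only, and the counts are too small to set the lists apart. Shown are both windows of Cyp11a1, the gene with the largest rise (no match), the SOX matches of Serpina5 and Cbln4, and the window of Cited1 with the core site; capitals mark the matches, and each runs 5′ to 3′ on the gene's strand.
Cyp11a1, chr9:57997774-57998073, + strand: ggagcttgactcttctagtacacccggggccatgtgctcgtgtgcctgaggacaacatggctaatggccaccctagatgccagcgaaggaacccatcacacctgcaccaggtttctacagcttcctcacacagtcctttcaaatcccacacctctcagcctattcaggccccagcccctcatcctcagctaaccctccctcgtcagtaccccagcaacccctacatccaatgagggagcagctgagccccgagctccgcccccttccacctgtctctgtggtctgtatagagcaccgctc
Cyp11a1, chr9:58014702-58015001, + strand: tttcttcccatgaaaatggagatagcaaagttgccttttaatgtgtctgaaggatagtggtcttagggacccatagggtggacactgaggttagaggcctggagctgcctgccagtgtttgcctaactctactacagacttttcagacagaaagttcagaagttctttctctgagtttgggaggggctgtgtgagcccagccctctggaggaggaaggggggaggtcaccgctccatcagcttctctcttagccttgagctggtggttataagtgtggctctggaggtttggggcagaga
Serpina5, chr12:104100863-104101162, + strand: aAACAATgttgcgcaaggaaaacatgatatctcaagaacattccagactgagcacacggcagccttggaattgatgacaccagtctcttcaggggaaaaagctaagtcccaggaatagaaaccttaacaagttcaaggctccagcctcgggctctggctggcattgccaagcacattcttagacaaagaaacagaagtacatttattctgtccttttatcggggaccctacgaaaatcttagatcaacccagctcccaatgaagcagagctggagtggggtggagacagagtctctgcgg
Cbln4, chr2:172043417-172043716, − strand: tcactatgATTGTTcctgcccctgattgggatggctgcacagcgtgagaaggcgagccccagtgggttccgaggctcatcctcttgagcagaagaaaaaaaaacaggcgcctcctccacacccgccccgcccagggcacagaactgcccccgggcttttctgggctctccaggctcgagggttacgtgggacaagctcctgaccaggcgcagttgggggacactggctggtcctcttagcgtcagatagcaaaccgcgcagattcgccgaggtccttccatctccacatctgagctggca
Cited1, chrX:102250727-102251026, − strand: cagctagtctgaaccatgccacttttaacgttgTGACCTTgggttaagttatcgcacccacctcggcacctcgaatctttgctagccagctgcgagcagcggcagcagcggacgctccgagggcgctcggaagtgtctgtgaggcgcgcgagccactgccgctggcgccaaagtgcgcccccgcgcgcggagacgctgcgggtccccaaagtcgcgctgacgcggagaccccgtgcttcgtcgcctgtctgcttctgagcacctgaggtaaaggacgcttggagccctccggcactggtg

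Some genes of contractile cells, stroma and matrix rose in Wv/Wv testis, while most members of these lists did not pass. Of 15 smooth muscle and peritubular genes 6 rose and 0 fell (10 and 0 with the class adjusted for), with a median of 0.74, and all 15 means were higher in Wv/Wv testes. Actg2, an enteric smooth muscle actin, rose by 2.04 ± 0.25, and Acta2, the actin of peritubular myoid cells, read 13.30, 13.38 and 13.35 in Wv/Wv testes, against 11.70, 11.75 and 11.85 in Wv/Wv ovaries (1.58 ± 0.26). Tpm2 (1.43 ± 0.33) and Tagln (1.36 ± 0.29) also rose. Of 17 interstitial stroma genes 5 rose and 0 fell (median 0.81; 9 and 2 with the class adjusted for): Inhba, Gli1, Ptch1, the proteoglycan Ogn (2.25 ± 0.62) and the ligand Wnt5a (1.05 ± 0.32, adjusted p = 0.0494). Ogn lost the call without any single array but Wv/Wv ovary array 3 (adjusted p up to 0.109), and Wnt5a without any but Wv/Wv testis array 1 (up to 0.203). Wnt5a also did not pass with the replicate block (0.063), a trended prior (0.0585) or only the 6 compared arrays in the fit (0.0618). Pdgfra changed by 0.88 ± 0.38 (adjusted p = 0.26) and Nr2f2 by 1.02 ± 0.40 (adjusted p = 0.183). Of 35 basement membrane and collagen genes 5 rose and 1 fell (median 0.37; 13 and 3 with the class adjusted for), among them Col9a3 (2.80 ± 0.41), Col4a4 (2.32 ± 0.57) and Col15a1 (1.76 ± 0.21), while Col12a1 fell by 2.25 ± 0.42. Col4a4 lost the call without Wv/Wv ovary array 2 (adjusted p = 0.074) or Wv/Wv testis array 2 (0.061), and Col12a1 with only the 6 compared arrays in the fit (0.0506). A second probe set of Col12a1 of like brightness (mean over 31 arrays 7.19, against 7.26) changed by −0.48. Dimmer probe sets of this gene changed by −0.16 and 0.03.

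Among the 30 gene lists, that of pregranulosa cells held the most falls. Of 30 measured members 19 fell and 3 rose in Wv/Wv testis, with a median of −1.81 against 0.00 over all genes, and with the class adjusted for 21 were lower and 5 higher. Fst, which encodes the activin antagonist follistatin, read 5.65, 6.27 and 6.16 in Wv/Wv testes, against 12.01, 11.60 and 11.74 in Wv/Wv ovaries (−5.76 ± 0.36, 54.1-fold lower, adjusted p = 1.51e-10), and its second probe set differed by −5.23. The homeobox gene Irx3 read 5.76, 5.98 and 6.03 in Wv/Wv testes, against 11.31, 10.87 and 11.35 in Wv/Wv ovaries, a 38.0-fold difference. Gng13, a G protein subunit, fell by 5.01 ± 0.33 (at least 32.2-fold), and Foxl2 fell by 3.54 ± 0.24, with 6.99, 6.53 and 6.65 in Wv/Wv testes, against 10.39, 10.33 and 10.06 in Wv/Wv ovaries. Arrays of the sexes were well separated for all 4, with no narrow-spread array between the groups. Foxl2os, the non-coding gene beside Foxl2, fell by 4.66 ± 0.42 (at least 16.2-fold lower).

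The other fixed ovarian markers also fell: the ligand Bmp2 (−2.40 ± 0.35), Rspo1 (−1.96 ± 0.33), Kitl, the ligand of Kit, (−2.20 ± 0.31) and Wnt4 (−1.62 ± 0.39). Wnt4 read 9.68, 10.25 and 10.27 in Wv/Wv testes, against 11.86, 11.39 and 11.81 in Wv/Wv ovaries, and its adjusted p of 0.00917 became 0.06 without Wv/Wv testis array 1. All 4 probe sets of Kitl differed in this direction, by −2.19 to −2.61. Members named after their values were seen were the transcription factors Runx1 (at least 7.81-fold lower), Irx5 (at least 5.42-fold lower) and Msx1 (−2.81), and Amhr2, the receptor for anti-Müllerian hormone (−1.77). Dimmer probe sets of Runx1 changed by −3.47, −2.84, −0.71, −0.48 and 0.02. The 3 members that rose were Hsd17b1, the guidance receptor Robo1 (1.75 ± 0.29) and Emb (1.38 ± 0.39, at least 2.59-fold, adjusted p = 0.0284), the last losing the call without array 1 or 3 of Wv/Wv ovary or array 2 or 3 of Wv/Wv testis (adjusted p 0.0955 to 0.114) and with housekeeping centring (0.0646). Esr2 changed by 0.56 ± 0.23 (adjusted p = 0.199).

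Outside the lists the 12 largest falls held Tnfrsf19, a receptor of the tumour necrosis factor family that read 6.74, 7.50 and 7.38 in Wv/Wv testes, against 12.27, 11.96 and 12.32 in Wv/Wv ovaries (31.4-fold lower). Insyn2b, an inhibitory synapse factor, was at least 6.66-fold lower, Lrrn1 at least 18.3-fold and Lypd6b at least 9.92-fold. The steroid reductase Akr1c14 was 16.5-fold lower, with 5.58, 6.78 and 6.41 in Wv/Wv testes, against 10.81, 9.20 and 10.88 in Wv/Wv ovaries. In both sexes the narrow-spread array read lowest for Akr1c14 and Lrrn1, so the spread within a sex followed the array class.

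Of 31 Wnt pathway genes 8 fell and 2 rose (median −0.21; 10 and 2 with the class adjusted for). Sp5, a direct target, was at least 7.70-fold lower and the target Lgr5, an R-spondin receptor, read 6.70, 6.35 and 6.26 in Wv/Wv testes, against 9.37, 9.18 and 9.26 in Wv/Wv ovaries (7.11-fold lower). The feedback inhibitor Rnf43 (−2.80 ± 0.40, at least 3.66-fold lower), the inhibitors Axin2 (−1.98 ± 0.36) and Nkd1 (−1.57 ± 0.31), and the transcription factor Lef1 (−1.17 ± 0.30), fell too. Lef1 did not pass with cyclic loess, quantile or housekeeping scaling (adjusted p 0.094 to 0.121), nor without Wv/Wv ovary array 2 (0.0747) or Wv/Wv testis array 2 (0.0907). Wnt5a and the secreted inhibitor Sfrp4 (1.24 ± 0.27; adjusted p = 0.0507 with housekeeping centring and 0.062 with only the 6 compared arrays in the fit) rose. The ligand Wnt4 and its enhancer Rspo1 were the other 2 that fell, and 21 of the 31 genes did not pass.

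Of 37 genes of activin, BMP and TGF beta signalling 5 rose and 6 fell (median −0.03), and 9 and 11 with the class adjusted for, while 26 did not pass. Among the subunits of inhibins and activins Inhba read 11.69, 11.73 and 11.32 in Wv/Wv testes, against 7.64, 8.01 and 7.95 in Wv/Wv ovaries (3.72 ± 0.35), the inhibin subunit Inha rose by 3.15 ± 0.40 and Inhbb by 1.68 ± 0.49. Inhbb read 10.11, 11.07 and 11.08 in Wv/Wv testes, against 9.35, 8.50 and 9.39 in Wv/Wv ovaries, and lost the call without any single array but Wv/Wv testis array 1 (adjusted p 0.062 to 0.176) and with the replicate block (0.0533). Amh and the Nodal antagonist Lefty2 were the other members that rose, Lefty2 at least 4.46-fold. The activin antagonist Fst, the ligand Bmp2, the receptors Amhr2, Bmpr1b (−2.71 ± 0.45, at least 6.40-fold lower) and Acvr2a (−0.65 ± 0.14), and the BMP target Id2 (−1.31 ± 0.27) fell. A dimmer probe set of Inhba, at most 5.59 on the 6 arrays, changed by −0.10.

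The next 3 lists stand beside 6.96% of all genes called, and 20.5% with the class adjusted for. Of 41 growth factor and Notch genes 7 rose and 5 fell (median 0.40; 16 and 6 with the class adjusted for). Gdnf, the Sertoli factor that sustains spermatogonia in later life, rose at least 8.03-fold (3.97 ± 0.46), and the chemokine Cxcl12, which guides germ cells, read 12.28, 12.53 and 12.37 in Wv/Wv testes, against 9.39, 8.87 and 9.01 in Wv/Wv ovaries (9.86-fold). The Notch target Heyl rose by 2.43 ± 0.27, Igfbp3 by 2.33 ± 0.63 and Pdgfa, a ligand for Leydig precursors, by 1.78 ± 0.34. Igfbp3 lost the call without array 2 or 3 of either sex (adjusted p 0.062 to 0.097). The receptor Fgfr2 fell by 1.53 ± 0.21 and Igf2 fell by 0.83 ± 0.23, and Igf2 likewise (adjusted p 0.056 to 0.125), with housekeeping centring (0.0627) and with only the 6 compared arrays in the fit (0.0957). Pdgfa did not pass in that last fit either (0.0586). Among 19 retinoic acid genes (3 higher and 4 lower with the class adjusted for) 1 rose, Cyp26b1, which degrades retinoic acid in the fetal testis (1.89 ± 0.29), and 1 fell, the binding protein Crabp1 (−2.12 ± 0.51, at least 4.14-fold lower, adjusted p 0.073 without Wv/Wv ovary array 3). Of 16 early gonad transcription factors 3 fell and 0 rose (5 and 2 with the class adjusted for), namely Emx2 (−2.07 ± 0.31), Wt1 and Gata6 (−1.16 ± 0.30, adjusted p 0.061 without Wv/Wv ovary array 3 and 0.059 without Wv/Wv testis array 3). Gata4 (−0.27 ± 0.36, adjusted p = 1) and Nr5a1 (0.93 ± 0.35, adjusted p = 0.146) did not pass.

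Genes of the mitotic cell cycle were higher in Wv/Wv testis. Of 23 measured members 11 rose and 0 fell, all 23 means were higher in Wv/Wv testes, and the median was 1.18. The class-adjusted fit called 22 of 23 higher. The spindle kinases Aurkb (1.53 ± 0.41) and Aurka (1.32 ± 0.31), the motor Kif11 (1.51 ± 0.37) and the mitotic kinase Plk1 (1.25 ± 0.34) rose. Aurka read 8.83, 9.21 and 9.27 in Wv/Wv testes, against 7.90, 7.62 and 7.84 in Wv/Wv ovaries, with every testis array above every ovary array. Aurkb and Kif11 lost the call without Wv/Wv ovary array 2 (adjusted p = 0.091 and 0.08), Aurkb also without Wv/Wv testis array 2 or 3 (0.0846 and 0.0826), and Plk1 without array 2 or 3 of either sex (up to 0.127). Kif11 did not pass with only the 6 compared arrays in the fit (0.0586). The proliferation marker Mki67 read 11.63, 12.19 and 12.21 in Wv/Wv testes, against 11.08, 10.30 and 11.13 in Wv/Wv ovaries, which did not overlap but did not pass (1.18 ± 0.46, adjusted p = 0.171; 2.69e-06 in the class-adjusted fit).

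**Figure D3:**
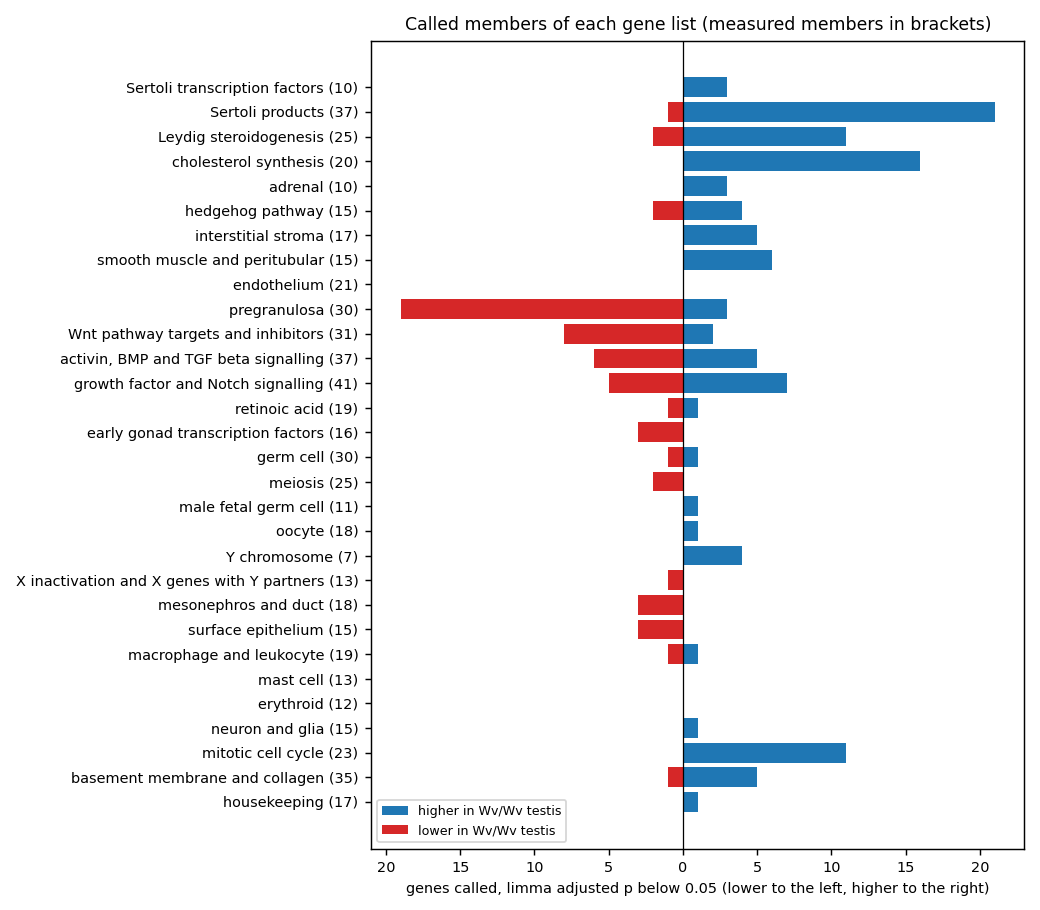
Number of called genes (x axis) higher (blue, to the right) or lower (red, to the left) in Wv/Wv testis than in Wv/Wv ovary at 16 dpc for each of 30 gene lists (y axis, measured members in brackets). Sertoli products (21 higher) and cholesterol synthesis (16 higher) reach farthest right and the pregranulosa list (19 lower) farthest left.

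Sex chromosome transcripts matched the labelled sex on all 6 arrays. Eif2s3y, a Y-linked translation factor, read 9.31, 9.85 and 10.16 in Wv/Wv testes, against 3.89, 3.74 and 3.52 in Wv/Wv ovaries, and Xist, the RNA of the inactive X chromosome, read 6.60, 5.71 and 5.19 in Wv/Wv testes, against 12.82, 12.51 and 12.57 in Wv/Wv ovaries. Of 7 Y genes 4 rose (Eif2s3y, Kdm5d, Uba1y and Uty; 4 with the class adjusted for), and of 13 X-linked genes 1, Xist, was called (4 lower with the class adjusted for). Kit itself read 7.12, 8.62 and 8.63 in Wv/Wv testes, against 8.91, 7.65 and 8.92 in Wv/Wv ovaries (adjusted p = 1), a level that cannot check a point mutation.

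Germ cell transcripts were at low signal in both sexes of the mutant. Of 30 germ cell genes 17 read under 5.387 on all 6 arrays, and the list averaged 4.59 to 4.70 over its members on Wv/Wv testis arrays and 4.64 to 4.75 on Wv/Wv ovary arrays. Dazl, an RNA-binding protein of germ cells, read 3.72, 3.92 and 3.69 in Wv/Wv testes, against 5.05, 4.39 and 5.73 in Wv/Wv ovaries (adjusted p = 0.337). The helicase Ddx4 read 3.35, 5.17 and 5.02 in Wv/Wv testes, against 3.19, 3.26 and 3.95 in Wv/Wv ovaries (adjusted p = 0.68), with overlapping arrays. On wild-type arrays Dazl averaged 9.31 ± 0.73 in testes and 12.01 ± 0.70 in ovaries (SD, n = 3 each), and Ddx4 9.32 ± 1.10 and 9.80 ± 0.67 in the same order. Of the list 1 gene rose, the phosphatase Alpl (1.78 ± 0.34, at least 3.36-fold), which other cells express too, and 1 fell, Tdrd5 (−1.23 ± 0.25, at least 1.82-fold lower; 2 rose and 1 fell with the class adjusted for).

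Among the 30 lists, meiosis genes held the most departures from the wild-type sex difference. Of 25 measured members 2 fell and 0 rose in the Wv/Wv comparison (2 and 1 with the class adjusted for), against 25 that fell in the wild-type testis compared with the wild-type ovary at the same age, where 9.65% of all genes were called and 5.14% were lower. The medians were −0.18 in Wv/Wv and −3.28 in wild type. The difference between the sex differences was called for 20 of the 25 (20 higher and 0 lower; 21 and 0 in the class-adjusted fit), beside 148 of all genes (0.813%; 118 higher, 0.649%, and 30 lower, 0.165%). Housekeeping centring turned that balance to 123 higher and 323 lower, and without Wv/Wv ovary array 3 or Wv/Wv testis array 1 the count was 91 and 93. Sycp3, of the synaptonemal complex, read 4.06, 3.45 and 3.43 in Wv/Wv testes, against 4.50, 3.80 and 4.35 in Wv/Wv ovaries. In wild type it read 5.31, 7.70 and 6.60 in testes, against 11.95, 11.50 and 11.93 in ovaries, so that wild-type ovaries stood well above the other 3 groups. Meiosis genes with a similar pattern were Meioc, which maintains meiotic prophase (Wv/Wv −0.02, wild type −5.01, adjusted p of the difference 3.87e-08), the cohesin subunit Smc1b (Wv/Wv −0.20, wild type −5.29) and Stra8, the trigger of meiosis (Wv/Wv −0.18, wild type −3.71). All 3 wild-type ovary arrays at 16 dpc and 1 of 3 wild-type testis arrays were narrow-spread, so the class is not balanced in this contrast, and the class-adjusted differences were 3.99 for Sycp3 and 4.94 for Meioc.

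Rec8, a meiotic cohesin subunit, did not follow the other members. It read 5.57, 5.24 and 5.72 in Wv/Wv testes, against 9.87, 9.54 and 10.29 in Wv/Wv ovaries (−4.39 ± 0.28, at least 20.3-fold lower, adjusted p = 1.77e-10). In wild type it read 6.20, 6.37 and 5.71 in testes, against 9.45, 10.60 and 9.44 in ovaries, and the sex difference did not pass a test of departure from wild type (−0.65 ± 0.40, adjusted p = 0.731). Rec8 was thus high on all 6 ovary arrays of either genotype at 16 dpc. Taf7l, a paralogue of a general transcription factor subunit, fell less in Wv/Wv (−1.36 ± 0.36, at least 1.87-fold) than in wild type (−3.60 ± 0.36), and its call was lost without Wv/Wv ovary array 1 (adjusted p = 0.108) or Wv/Wv testis array 1 or 2 (0.057 and 0.078), and on wide-spread arrays alone (0.0909). Syce2, named after its values were seen, stood well above the limit in Wv/Wv gonads, at 9.79, 9.77 and 9.84 in Wv/Wv testes, against 9.12, 8.50 and 9.16 in Wv/Wv ovaries, and changed by 0.87 in Wv/Wv and −2.60 in wild type.

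**Figure D4:**
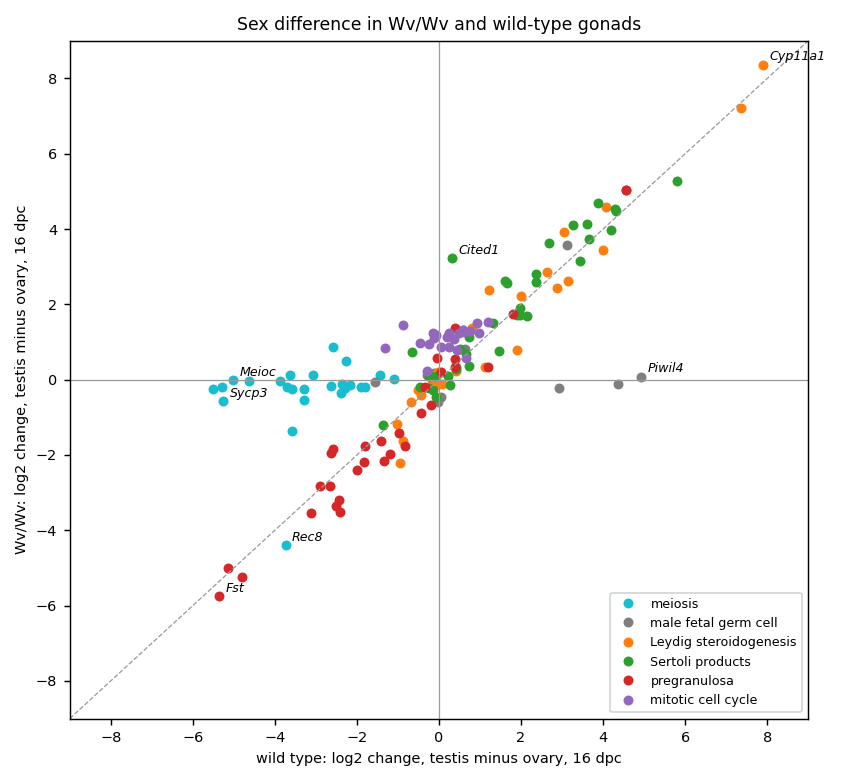
Log2 change between testis and ovary at 16 dpc in Wv/Wv gonads (y axis) against that in wild-type gonads (x axis) for the members of 6 gene lists. The dashed line marks equal changes. Leydig, Sertoli and pregranulosa genes lie mostly near it, most meiosis genes lie near 0 in Wv/Wv but not Rec8 (−4.39 in Wv/Wv, −3.74 in wild type), and mitotic genes lie above 0 in Wv/Wv.

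Of 11 male fetal germ cell genes 3 had a called difference between the genotypes, all lower (3 with the class adjusted for too), and 8 did not pass. Piwil4, of the piRNA pathway, read 2.69, 3.18 and 2.97 in Wv/Wv testes, against 3.03, 2.83 and 2.75 in Wv/Wv ovaries, while it averaged 8.09 ± 1.11 in wild-type testes and 3.17 ± 0.14 in wild-type ovaries (SD, n = 3 each; difference of the sex differences −4.85 ± 0.53, adjusted p = 5.14e-06). The other 2 were Morc1, a chromatin factor that silences transposons (−4.46), and Dnmt3l, the cofactor of DNA methylation, named after its values were seen (−3.15). Of the 30 germ cell genes 3 had a called difference, higher for Tex101 (3.66, named after its value was seen) and lower for Tdrd9 (−3.75) and Dppa4 (−3.70). In the Wv/Wv comparison 1 of the 11 rose and 0 fell (1 and 1 with the class adjusted for), and this was Lefty2, whose wild-type change was 3.13 ± 0.37. Of 18 oocyte genes 1 rose and 0 fell (1 and 0 with the class adjusted for), with 9 under 5.387 on all 6 arrays. The one that rose was Taf4b, at 7.25, 7.32 and 7.48 in Wv/Wv testes, against 5.76, 6.35 and 6.04 in Wv/Wv ovaries, which was lower in wild-type testis than in wild-type ovary (−1.24 ± 0.29; difference of the sex differences 2.53 ± 0.42).

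The sex difference in wild type was then set beside that in Wv/Wv over all genes. The wild-type comparison called 1755 genes, 819 higher and 936 lower in testis. Of these, 701 were called in the same direction in Wv/Wv, which is 55.4% of the Wv/Wv calls and 39.9% of the wild-type calls, and 13 were called in opposite directions. Wild-type ovary arrays at this age were all narrow-spread, unlike most wild-type testis arrays, and this fit had no class term. Array class is thus mixed into the wild-type count and both shares. Cyp11a1 changed by 8.36 in Wv/Wv and 7.89 in wild type, Cst9 by 5.28 and 5.80, Amh by 2.62 and 1.61, Foxl2 by −3.54 and −3.11, and Fst by −5.76 and −5.36. None of these 5 differences between genotypes passed (limma adjusted p 0.816 to 0.903). In simulated data this test recovered only 3 of 100 genes changed by 1 (log2). A p that misses the threshold thus does not show that the genotypes are alike. Of the Sertoli transcription factor, Sertoli product, Leydig and pregranulosa lists 0, 1, 1 and 0 members had a called difference between the genotypes.

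The largest departures of all were those of Ugt8a, a galactosyltransferase of myelin lipids that is on the meiosis list (Wv/Wv −0.25, wild type −5.52), and Terb1, which tethers meiotic telomeres (Wv/Wv 0.01, wild type −5.22). Of the 148 genes with a called difference between genotypes, 42 were also called in the Wv/Wv comparison. Cited1, the 1 Sertoli product among them, read 8.86, 8.46 and 8.45 in Wv/Wv testes, against 5.01, 5.58 and 5.51 in Wv/Wv ovaries, but 7.95, 8.55 and 8.50 in wild-type testes, against 7.75, 8.54 and 7.74 in wild-type ovaries. The sex difference was thus 3.22 in Wv/Wv and 0.32 in wild type (difference 2.90 ± 0.49, adjusted p = 0.00185; 2.04 in the class-adjusted fit). Rrad, a small GTPase, ran the other way in the mutant and read 4.42, 4.77 and 5.06 in Wv/Wv testes, against 8.03, 7.09 and 8.05 in Wv/Wv ovaries (at least 5.05-fold lower), and averaged 7.41 ± 0.72 in wild-type testes and 6.41 ± 0.14 in wild-type ovaries (SD, n = 3 each; difference −3.98 ± 0.43, adjusted p = 3.97e-06). Genes named after their values were seen included the class I antigen H2-K1 (Wv/Wv 1.50, wild type −2.01; its Wv/Wv call was lost without array 2 or 3 of either sex, adjusted p up to 0.114, and with only the 6 compared arrays in the fit, 0.145), Akr1c18 (Wv/Wv −2.22, wild type −0.95), Kcnip4 (Wv/Wv −2.66, at least 3.06-fold lower, wild type −0.65) and Chodl (Wv/Wv −2.49, at least 3.28-fold lower, wild type −0.78). The cell cycle genes Mad2l1 (Wv/Wv 1.39, wild type −0.27), Birc5 (Wv/Wv 1.44, wild type −0.17), Ube2c (Wv/Wv 1.68, wild type −0.37) and Cenpw (Wv/Wv 1.22, wild type −1.65) were among them too. Dimmer probe sets of H2-K1 changed by 0.98, 0.27 and −0.0002 in Wv/Wv. Over the mitotic list the medians were 1.18 in Wv/Wv and 0.24 in wild type, and 1 of 23 members, Rrm2, had a called difference. In the class-adjusted fit 8 members had one, Rrm2 not among them, beside 520 of all genes.

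Markers of other cell types were read beside these groups. Of 18 mesonephros and duct genes 3 fell and 0 rose (4 and 0 with the class adjusted for): Calb1, a calcium-binding protein, with 3.77, 3.69 and 4.51 in Wv/Wv testes, against 11.13, 10.79 and 10.99 in Wv/Wv ovaries (at least 47.8-fold lower, the largest fall of all genes), Pax8 (−1.26 ± 0.23) and the Gdnf receptor Ret (−0.79 ± 0.17, at least 1.38-fold lower; adjusted p = 0.0904 with housekeeping centring and 0.0511 with only the 6 compared arrays in the fit). The other 3 probe sets of Calb1 were dim and fell by 1.64 to 2.78. A second probe set of Ret (mean over 31 arrays 5.51, against 5.59) changed by −2.85. The list averaged 5.07 to 5.29 on Wv/Wv testis arrays and 5.78 to 5.83 on Wv/Wv ovary arrays, and 9 of the 18 read under 5.387 on all 6. Of 15 surface epithelium genes 3 fell and 0 rose (median −1.25; 7 and 0 with the class adjusted for), the keratins Krt8 and Krt18 and the sialomucin Podxl (−2.35 ± 0.47); the list averaged 6.78 to 7.29 on Wv/Wv testis arrays and 7.43 to 9.17 on Wv/Wv ovary arrays. Krt8 read 8.41, 9.22 and 9.27 in Wv/Wv testes, against 12.15, 9.62 and 10.86 in Wv/Wv ovaries, with ovary array 1 highest, and the adjusted p was 0.089 without that array 0.057 without Wv/Wv testis array 1 and 0.178 with only the 6 compared arrays in the fit. Krt18 (−1.92 ± 0.47) likewise gave 0.08 and 0.057. The part of duct and surface cells in the pregranulosa falls was not tested.

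Blood and vessel lists were read against the 6.96% of all genes called, and against 20.5% of all genes with the class adjusted for. Of 19 macrophage and leukocyte genes (2 and 3 higher and lower with the class adjusted for) 1 rose, lysozyme Lyz2 (1.48 ± 0.35, adjusted p 0.058 without Wv/Wv testis array 1), and 1 fell, Cd83 (−2.69 ± 0.51). None of 21 endothelial, 13 mast cell and 12 erythroid genes was called, with medians of 0.15, 0.05 and 0.20. With the class adjusted for, 4 endothelial genes were higher and 2 lower, 0 mast cell genes were called, and 2 erythroid genes were lower. The largest changes there were Sox18 (0.76 ± 0.33) and Cdh5 (0.60 ± 0.19) among endothelial genes, Ms4a2 (0.39 ± 0.23) and Kit among mast cell genes, and Alas2 (1.13 ± 0.58) and Gata1 among erythroid genes. Of 15 neuron and glia genes 1 rose (1 with the class adjusted for), Tubb3 (1.93 ± 0.40, at least 3.69-fold), and of 17 housekeeping genes 1 rose (3 higher and 1 lower with the class adjusted for), B2m (0.91 ± 0.23, adjusted p 0.089 without Wv/Wv ovary array 3 and 0.057 without Wv/Wv testis array 1).

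The Wv/Wv sex difference at 16 dpc was set beside those at 14 and 12 dpc, which come from other arrays of the same genotype. At 12 dpc 68 genes were called (0.374%; 50 higher and 18 lower in testis), at 14 dpc 671 (3.69%; 423 and 248) and at 16 dpc 1266. Sertoli products already differed at 12 dpc, with 12, 20 and 21 of 37 called higher at 12, 14 and 16 dpc. Dhh differed by 3.74 ± 0.42, 4.25 ± 0.42 and 4.12 ± 0.37 in that order. Among Leydig genes Cyp11a1 differed by 0.23 ± 0.37 at 12 dpc (adjusted p = 1), 7.84 ± 0.37 at 14 dpc and 8.36 ± 0.33 at 16 dpc. Of the Leydig list 1, 11 and 11 of 25 were called higher at these ages, and of the cholesterol list 0, 12 and 16 of 20. Pregranulosa genes called lower numbered 5, 16 and 19 of 30, and mitotic genes called higher 0, 3 and 11 of 23. Fewer arrays stood behind the younger ages, and the difference between 12 and 16 dpc was not tested. Array class also differed between the ages, as all Wv/Wv arrays at 12 dpc were wide-spread. At 14 dpc Wv/Wv testis array 2 and Wv/Wv ovary arrays 2 and 3 were narrow-spread. The counts by age are not adjusted for class, so age and class are mixed in them.

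**Figure D5:**
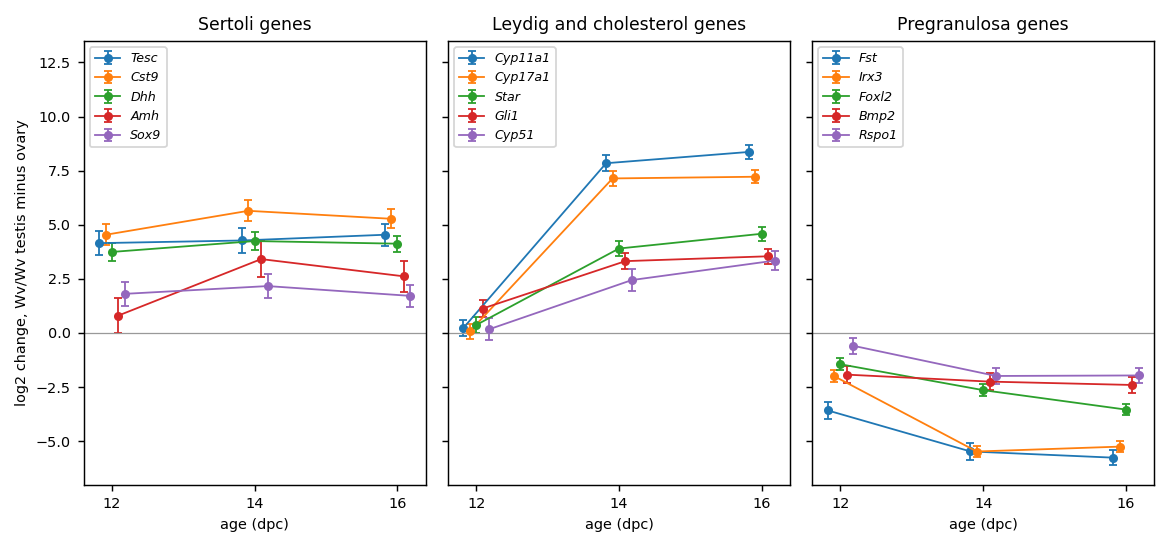
Log2 change between Wv/Wv testis and Wv/Wv ovary (y axis) at 12, 14 and 16 dpc (x axis) for 5 Sertoli, 5 Leydig or cholesterol and 5 pregranulosa genes; bars are the standard error of the fit. Dhh stands near 4 at each age, Cyp11a1 moves between 0.23 at 12 dpc and 8.36 at 16 dpc, and Fst stands between −3.57 and −5.76.

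Between 14 and 16 dpc the Wv/Wv sex difference changed for 0 genes in limma at an adjusted p below 0.05, with 348 genes at an unadjusted p below 0.05, and with the class adjusted for 7 were higher and 17 lower. Amh differed by 3.41 ± 0.81 at 14 dpc and 2.62 ± 0.73 at 16 dpc, and Aard, a Sertoli product named after its values were seen, by 4.12 ± 0.49 and 1.71 ± 0.44. At 16 dpc Aard lost the call without Wv/Wv ovary array 2 (adjusted p = 0.0947) or Wv/Wv testis array 2 or 3 (0.064 and 0.0708). Cited1 differed by 3.22 ± 0.39 at 14 dpc and 3.22 ± 0.35 at 16 dpc. With 2 Wv/Wv testis arrays at 14 dpc, a p that misses the threshold does not show that the ages are alike.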

How the data were processed

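RNA of whole fetal mouse gonads was hybridised to Affymetrix 3′ expression arrays. The authors deposited 1 log2 value per probe set and array, made with RMA per the submitters' processing notes (version not given in the sources used here). RMA as usually run corrects background, quantile-normalizes and summarises probes, which compresses low signals. Detection calls and scan dates were not used here. Precision is limited by how few arrays there were, as a read depth does not apply. Of 45101 probe sets 34958 carried 1 gene symbol in the platform annotation, 932 several and 9211 none, and the probe set of highest mean over 31 arrays stood for each of 18194 genes.

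Groups came from the titles, which number replicates 1 to 3. A mean was fitted to each of 12 groups over 31 arrays with limma 3.58.1 (lmFit, eBayes) in R 4.3.3, contrasts were taken between groups, and p-values were adjusted over all genes (Benjamini-Hochberg, threshold 0.05). An exact permutation test of 3 against 3 arrays cannot go below 0.1 (two-sided). Tables and plots used Python 3.11.15, pandas 2.3.3, numpy 2.4.6 and matplotlib 3.10.9. The fit was tested on simulated data made from these values over 18194 genes. For Wv/Wv testis against Wv/Wv ovary it recovered 92 of 100 genes changed by 2 (log2) and 39 of 100 changed by 1, with 8 false calls. For the sex by genotype difference it recovered 68 and 3 of 100, and for the sex by age difference 67 and 5. Noise was drawn separately for each gene and array, with no array class effect, so recovery in the real data may differ.

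The comparison, members and gene lists were chosen with earlier results of these data known. Genes were named as the 12 largest rises and falls with non-overlapping arrays, up to 4 called members per list with the largest change (the largest 2 where none was called), the 5 largest interactions each way and fixed markers. All other genes, including those printed for not passing, were chosen after their values were seen. Alternatives were array weights, low-signal genes left out, every probe set, a minimum log2 change of 1, cyclic loess, quantile or housekeeping scaling, a trended robust prior, a block for replicate number, fewer arrays in the fit, the array class as a term, wide-spread arrays only and each array left out. Deviations of same-numbered Wv/Wv testis and Wv/Wv ovary arrays correlated at −0.69, −0.73 and 0.70. The narrow-spread arrays, Wv/Wv testis array 1 and Wv/Wv ovary array 2, correlated at 0.82. The correlations thus followed array class and cannot show whether the numbers pair the samples.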

Additional observations from a re-analysis of the deposited data

Results flagged for a closer look

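For each gene here a test of the difference itself called the sex difference (testis minus ovary, log2) at 16 dpc as unlike between Wv/Wv and wild type. The value is the Wv/Wv sex difference minus the wild-type one. All 3 wild-type ovary arrays, but only 1 of 3 arrays in each other group, were narrow-spread, so array class and genotype are partly mixed in these values.

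Terb1, on none of the lists, had a value of 5.23. Of 25 meiosis genes 20 were called, all positive, among them 5.27 for Ugt8a, 5.10 for Smc1b, 4.99 for Meioc, 4.68 for Sycp3, 3.53 for Stra8, 3.47 for Syce2 and 2.23 for Taf7l, the last with an adjusted p of 0.0518 in the class-adjusted fit. The oocyte gene Taf4b had a value of 2.53. Of 11 male fetal germ cell genes 3 were called, with values of −4.85 for Piwil4, −4.46 for Morc1 and −3.15 for Dnmt3l. Of 30 germ cell genes 3 were called, with −3.75 for Tdrd9 and −3.70 for Dppa4 among them.

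For the other flagged genes, which cells carried the signal was not tested. Among them Cited1 had a value of 2.90 and H2-K1 of 3.50. Rrad (−3.98), Kcnip4 (−2.01), Chodl (−1.71) and the steroid reductase Akr1c18 (−1.27) were negative. The cell cycle genes Cenpw (2.87), Rrm2 (2.16), Ube2c (2.05), Mad2l1 (1.67) and Birc5 (1.61) were positive. In the class-adjusted fit Rrm2 had an adjusted p of 0.0503 and Ube2c of 0.0663.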

How the results depend on the processing

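The count of genes called between Wv/Wv testis and Wv/Wv ovary, 1266 as reported, was 876 to 1780 with low-signal genes left out, quantile or housekeeping scaling, a minimum log2 change, a trended prior, or only the compared arrays in the fit. It was 2074 with cyclic loess, 2156 over every probe set, 2587 with the array class as a term, 3728 with that term and without wild-type testis array 1, 3756 on wide-spread arrays only and 9564 with array weights, whose estimation stopped before it converged. Leaving out 1 array gave 931 to 1181, and without Wv/Wv ovary array 2 the split was 533 higher and 648 lower. The split was 1684 and 2072 on wide-spread arrays and 4385 and 5179 with weights. Housekeeping centring lowered each change by 0.11 (log2). The replicate block gave 1177 calls, 131 for the sex by genotype difference and 0 for the sex by age difference.

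The sex by genotype count of 148 was 48 with only the compared arrays, 235 over every probe set, 446 with housekeeping centring, 497 with quantile scaling, 507 with cyclic loess, 520 with the class term and without wild-type testis array 1, 1332 with the class term alone and 10781 with array weights. Leaving out 1 array gave 91 (without Wv/Wv ovary array 3) to 192. Wide-spread arrays alone could not be fitted, as no wild-type ovary array at 16 dpc was wide. The sex by age count of 0 was 6 with the class term, 24 with that term and without wild-type testis array 1, and 0 to 1 without single arrays. The causes were not tested.

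Of 168 named changes 0 reversed, though every alternative used the same arrays or a part of them. Of the 132 called, 25 lost the call without some single array and 34 under any of the alternatives run.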
